A study of Saccharomyces cerevisiae with 15 samples.

Results

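Aminoacyl-tRNA synthetases join each amino acid to its tRNA, the step that lets ribosomes read the genetic code. Budding yeast keeps one set of these enzymes for the cytosol and another for the mitochondrion, where a separate ribosome translates the few messages of the mitochondrial genome, and nuclear genes encode both sets. For some amino acids one gene supplies both compartments. The genes described here were listed by name, with no threshold on a measured value but with earlier results of these data known, and comprise 35 of the 5588 yeast genes with a probe set on the arrays. Of these, 21 form a cytosolic list and 14 a mitochondrial list. Within the cytosolic list 5 genes are counted here as serving both compartments, which may not be all that do. They are ALA1, GRS1, HTS1, VAS1 and YNL247W, the enzymes for alanine, glycine, histidine, valine and cysteine.

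The study compared Saccharomyces cerevisiae strains with and without 2 transcription factors under arsenate (AsV), the pentavalent arsenic salt that resembles phosphate. Yap1 is a regulator of oxidative stress genes, and Yap8, encoded by ARR1, is the regulator of the arsenic resistance genes. The labels give 5 groups of 3 arrays, which are the yap1 mutant, the yap8 mutant, the y1y8 double mutant and wild type (WT), each with AsV for 60 min, and WT with no agent at 0 min. The series' design text adds a dose of 2 mM and describes yap1yap8 cells carrying pRS416 and YcpLac111 either empty or with YAP1 or YAP8, grown in SC-URA-LEU with arsenate to exponential phase. That text conflicts with the labels on the exposure, and it names neither a WT strain nor single mutants. The labels do not say which plasmids a group carried, so the strain background and the exposure are not settled. No mutant was measured without arsenate, and no WT array at 60 min was untreated, so the change in WT joins the agent with the time.

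Each array gave a signal intensity per probe set. Signals were quantile normalized and are given as log2 values, and changes are differences of group means from limma with their standard error (SE). A gene is said to have risen or fallen where its p-value, adjusted over all 5588 genes, was under 0.05. Every synthetase was called present on all 15 arrays, and between 98.4% and 99.3% of yeast gene probe sets were present on an array. YAP1 averaged 9.21 ± 0.21 in yap1, 11.70 ± 0.16 in yap8, 9.20 ± 0.12 in y1y8, and 11.67 ± 0.16 in arsenate WT (SD, n = 3 arrays each), so it was lower in both strains labelled as lacking it, by 5.52-fold and 5.56-fold, although its probe set was called absent on 0 of the 15 arrays. ARR1 had an absent call on every yap8 and y1y8 array and on no other array. Arrays report each RNA relative to the others, so fewer copies of one mRNA and more of the remaining RNA cannot be told apart.

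In arsenate WT, cytosolic synthetase mRNAs were mostly lower than in untreated WT, by up to 2.61-fold, while mitochondrial ones went both ways. SLM5, the mitochondrial asparagine enzyme, rose 3.41-fold and was the largest change of the 35 genes. Of the 35, 27 passed the test, 6 higher and 21 lower, with a median change of -0.29, beside 81.2% of all genes called (41.9% higher and 39.2% lower) and a median of 0.03 over all genes. The 77.1% of synthetases called is thus near the share of all genes. Arsenate and untreated arrays did not overlap for 6 synthetases that were higher and 21 that were lower, beside 42.3% and 40.2% of all genes. In the cytosolic list 15 of 21 fell, DPS1 and KRS1 rose, and 4 did not pass, with a median of -0.32. In the mitochondrial list 6 of 14 fell, 4 rose and 4 did not pass, with a median of 0.03.

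How the arrays are scaled matters for the cytosolic list. With each array centred on its median in place of quantile normalization, the median of the cytosolic list was -0.74, no member rose and 20 of 21 fell, while the mitochondrial list kept a median of 0.01 with 5 higher and 6 lower. The median over all genes was -0.03 under that scaling. The share of all genes called with median centring is not given here, so these counts stand without their base. After quantile normalization 41.9% of all genes were called higher and 39.2% lower. What separates the scalings for these probe sets was not tested. Small changes of cytosolic synthetases are therefore given below with both values where the direction or the call differs.

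**Figure D1:**
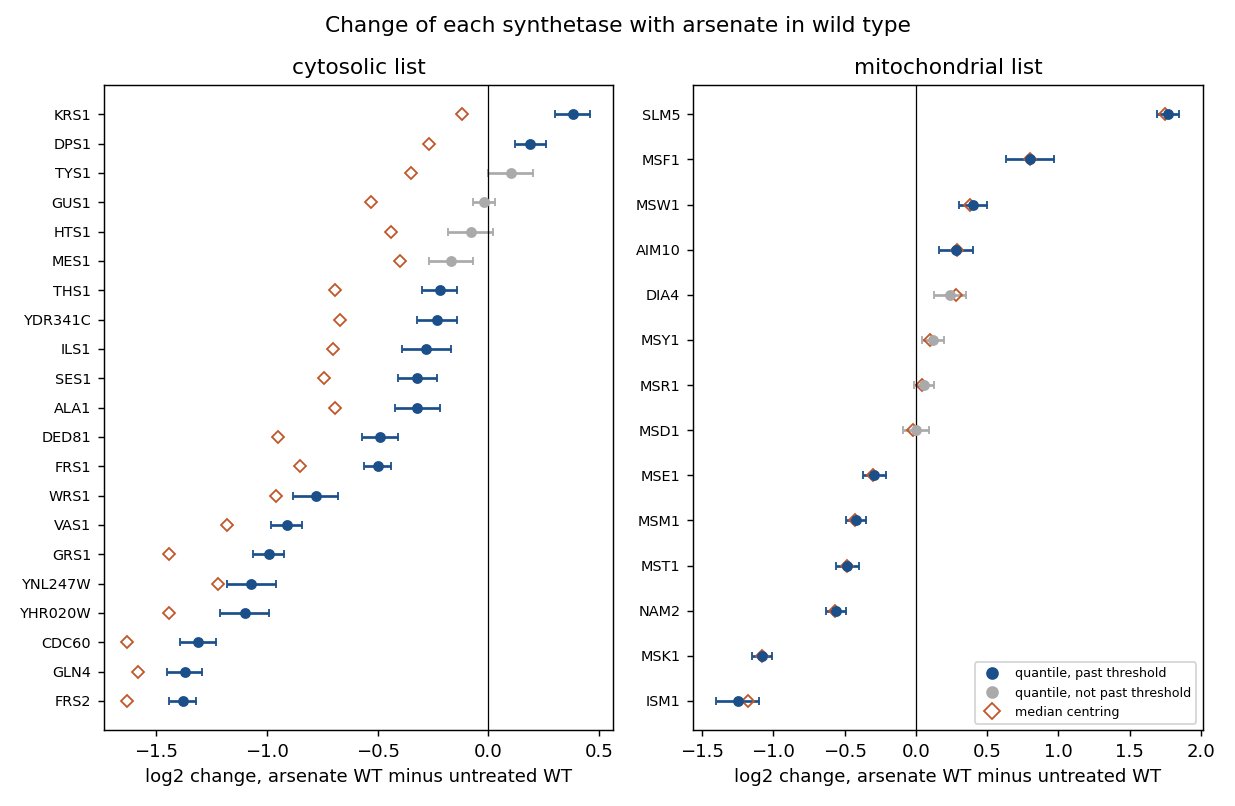
Change of each of the 35 synthetases in arsenate WT minus untreated WT (x axis, log2; genes in rows, n = 3 arrays per group), with filled points and SE bars for quantile normalization and open diamonds for median centring. The 15 cytosolic genes that fell lie left of 0 under both scalings, KRS1, DPS1 and TYS1 change side, and the mitochondrial genes range from -1.25 (ISM1) to 1.77 (SLM5).

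The cytosolic enzymes for phenylalanine, glutamine, leucine, proline and cysteine fell most after quantile normalization. With median centring the glycine enzyme GRS1, at -1.44, equalled YHR020W (-1.44) and passed YNL247W (-1.22). FRS2, the alpha subunit of the phenylalanine enzyme, had log2 signals of 10.31, 10.26 and 10.32 in arsenate WT, against 11.67, 11.65 and 11.72 in untreated WT, and fell by 1.38 ± 0.06 (adjusted p = 1.01e-10). GLN4, the glutamine enzyme, had 10.10, 10.23 and 10.05 in arsenate WT, against 11.63, 11.39 and 11.47 in untreated WT, and fell by 1.37 ± 0.08 (adjusted p = 2.41e-09). For both genes every arsenate array lay below every untreated array, by more than a log2 unit. CDC60, which charges leucine tRNA, had 10.70, 10.65 and 10.73 in arsenate WT, against 12.04, 11.94 and 12.02 in untreated WT, and fell by 1.31 ± 0.08 (adjusted p = 6.57e-09). The proline enzyme gene YHR020W had 10.87, 10.98 and 10.98 in arsenate WT, against 12.15, 11.89 and 12.09 in untreated WT, a fall of 2.15-fold (adjusted p = 6.49e-07). YNL247W, the cysteine enzyme gene that gene table R64 names CRS1, had 10.25, 10.13 and 10.25 in arsenate WT, against 11.35, 11.23 and 11.25 in untreated WT, a fall of 2.10-fold (adjusted p = 9.57e-07). In these 3 genes too the groups did not overlap, and the arrays within a group were close.

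Other cytosolic enzymes fell less than 2-fold after quantile normalization, although GRS1 (-1.44) and VAS1 (-1.18) fell by more with median centring. GRS1 for glycine changed by -0.99 ± 0.07, VAS1 for valine by -0.91 ± 0.07, and WRS1 for tryptophan by -0.78 ± 0.10, each with groups that did not overlap. FRS1, the beta subunit of the phenylalanine enzyme, changed by -0.50 ± 0.06 and DED81 for asparagine by -0.49 ± 0.08, beside -0.85 and -0.95 with median centring. The 2 subunits of the phenylalanine enzyme thus both fell, and the log2 ratio of FRS2 to FRS1 was -1.31 to -1.11 in arsenate WT, against -0.36 to -0.28 in untreated WT, a shift of -0.88. Falls of 0.22 to 0.32 passed for ALA1 (alanine), SES1 (serine), ILS1 (isoleucine), YDR341C (arginine) and THS1 (threonine). With median centring these falls were larger, at -0.69, -0.74, -0.70, -0.67 and -0.69 in the same order, and all 5 passed. After quantile normalization, SES1 alone of the 5 kept its call whichever array was left out. The calls were lost for ALA1 without arsenate WT replicate 1 (-0.24, adjusted p = 0.0592), for THS1 without untreated replicate 1 (-0.19, adjusted p = 0.0525), for ILS1 without untreated replicate 1, 2 or 3 or arsenate WT replicate 1 or 3 (adjusted p from 0.0522 to 0.0886), and for YDR341C without untreated replicate 1 or 3 or arsenate WT replicate 1 or 2 (adjusted p from 0.0611 to 0.0857).

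At the other end of the cytosolic list stood the lysine, aspartate and tyrosine enzymes, whose direction rests on the scaling. KRS1, the lysine enzyme, had 12.75, 12.71 and 12.79 in arsenate WT, against 12.46, 12.32 and 12.33 in untreated WT, and rose by 0.38 ± 0.08 (adjusted p = 0.000565), but changed by -0.12 with median centring (adjusted p = 0.352). DPS1, the aspartate enzyme, had 12.39, 12.30 and 12.35 in arsenate WT, against 12.18, 12.14 and 12.15 in untreated WT, and rose by 0.19 ± 0.07 (adjusted p = 0.0278), but fell by 0.27 with median centring (adjusted p = 0.0294). The arsenate arrays of both genes were above the untreated ones after quantile normalization, by small margins for DPS1. Its call was also lost without untreated replicate 2 or 3 or arsenate WT replicate 1 or 3, with changes of 0.17 to 0.18 and adjusted p from 0.0575 to 0.0843. TYS1, the tyrosine enzyme, had 12.30, 12.39 and 12.18 in arsenate WT, against 12.25, 12.12 and 12.18 in untreated WT, a change of 0.10 ± 0.10 (adjusted p = 0.33) with overlapping groups, and fell by 0.35 with median centring (adjusted p = 0.0047). GUS1 for glutamate (-0.02), HTS1 for histidine (-0.08) and MES1 for methionine (-0.17) did not pass either, and fell by 0.53, 0.44 and 0.40 with median centring. MES1 also passed without untreated replicate 2 (-0.25, adjusted p = 0.0264).

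The synthetases fall into 2 structural classes with unrelated catalytic domains, a split drawn up here after the values were seen. After quantile normalization, shares called in class I (70.0%), class II (90.9%) and the genes counted as serving both compartments (80.0%) lay around the 81.2% of all genes. Of all genes, 41.9% were higher and 39.2% lower. In class I, 7 of 10 cytosolic members fell and none of the 10 rose, with a median of -0.53. GUS1, MES1 and TYS1, which did not pass, fell with median centring (-0.53, -0.40 and -0.35). In class II, 8 of 11 fell, and DPS1 and KRS1 rose but turned with median centring, with a median of -0.32. Among the 5 genes counted as serving both compartments 4 fell, HTS1 did not pass (-0.44 and past the threshold with median centring), and the median was -0.91. Medians of these groups with median centring are not given here, so no difference between the classes is read.

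Mitochondrial synthetases that rose were led by SLM5. Its signals were 10.25, 10.20 and 10.17 in arsenate WT, against 8.34, 8.60 and 8.38 in untreated WT, a rise of 1.77 ± 0.08 (adjusted p = 1.6e-10). The gap between the groups was many times the spread within either. MSF1, the mitochondrial phenylalanine enzyme, had 9.62, 9.19 and 9.35 in arsenate WT, against 8.40, 8.95 and 8.40 in untreated WT, and rose by 0.80 ± 0.17 (adjusted p = 0.000592). Untreated replicate 2 was high for MSF1, and the groups still did not overlap. That array was the highest of its group for 11 of 14 mitochondrial synthetases (median deviation 0.14 from the group mean). It was the lowest for 18 of 21 cytosolic ones (-0.05), and untreated replicate 1 was the highest for 18 of 21 (0.05). The part of these shifts in the WT changes was not tested beyond leaving out single arrays. For the ratios below no array was left out. MSW1, which charges mitochondrial tryptophan tRNA, had 9.44, 9.43 and 9.44 in arsenate WT, against 9.05, 9.0 and 9.06 in untreated WT, and rose by 0.40 ± 0.10 (adjusted p = 0.00252). AIM10, which resembles prolyl-tRNA synthetases, had 9.79, 9.46 and 9.62 in arsenate WT, against 9.29, 9.60 and 9.13 in untreated WT, and rose by 0.28 ± 0.12 (adjusted p = 0.047). Its groups overlapped, and its call was lost in 12 of 23 alternatives: without untreated replicate 1 or 3, arsenate WT replicate 1 or 3 or any of 7 mutant arrays, and in a fit of the groups compared alone (changes of 0.18 to 0.29, adjusted p from 0.0518 to 0.213). DIA4, the probable mitochondrial serine enzyme, stood just outside the threshold at 0.24 ± 0.11 (adjusted p = 0.0529), and passed in 5 of the alternatives, among them without untreated replicate 2 (0.32), y1y8 replicate 1 or y1y8 replicate 3 (0.24 each).

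Falls among the mitochondrial enzymes were led by isoleucine and lysine. ISM1, the isoleucine enzyme, had 7.06, 6.99 and 6.96 in arsenate WT, against 8.39, 8.17 and 8.19 in untreated WT, a fall of 2.38-fold (adjusted p = 4.24e-06). MSK1, the lysine enzyme, had 8.98, 9.04 and 8.95 in arsenate WT, against 10.09, 10.14 and 9.99 in untreated WT, a fall of 2.12-fold (adjusted p = 9.53e-09). Both were low on every arsenate array. NAM2, the leucine enzyme that also takes part in splicing of mitochondrial introns, had 8.02, 7.97 and 7.99 in arsenate WT, against 8.51, 8.68 and 8.48 in untreated WT, and fell by 0.56 ± 0.07 (adjusted p = 3.56e-06). MST1, the threonine enzyme, had 8.81, 8.77 and 8.75 in arsenate WT, against 9.20, 9.44 and 9.13 in untreated WT, and fell by 0.48 ± 0.08 (adjusted p = 5.45e-05). Neither pair of groups overlapped. MSM1 for methionine (-0.42) and MSE1 for glutamate (-0.29) fell as well, while MSR1 for arginine (0.06 ± 0.07), MSY1 for tyrosine (0.12 ± 0.08) and MSD1 for aspartate did not pass. MSY1 passed without untreated replicate 2 (0.20, adjusted p = 0.0228).

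Set side by side, cytosolic and mitochondrial enzymes for the same amino acid showed a range of differences. The lists give 15 gene pairs for 14 amino acids, the phenylalanine enzyme counting for 2 because of its 2 cytosolic subunits. In 6 pairs both genes passed in opposite directions, in 3 both fell, and in none did both rise, where 41.9% of all single genes passed higher and 39.2% lower. The lysine pair is one of the 6 and rests on the scaling of KRS1, and the proline pair is another and rests on the call of AIM10. The within-array log2 ratio of the cytosolic to the mitochondrial gene did not overlap between arsenate and untreated WT in 13 of the 15 pairs, with the cytosolic gene relatively lower in 8 and relatively higher in 5. Single genes did not overlap in 42.3% (higher) and 40.2% (lower) of all genes, so nothing particular to these pairs is read from the count. An exact two-sided permutation test of 3 arrays against 3 cannot give a p under 0.1, the value for each of the 13. In unnormalized signals, whose within-array ratios no centring can move, 11 pairs did not overlap, 9 with the cytosolic gene relatively lower and 2, lysine and isoleucine, with it relatively higher. Of the other pairs counted as relatively higher after quantile normalization, glutamate, threonine and methionine, the unnormalized shifts were -0.22 for GUS1 against MSE1, -0.21 for THS1 against MST1 and 0.03 for MES1 against MSM1, with overlapping arrays.

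The widest split was for asparagine. The ratio of DED81 to SLM5 was 1.61 to 1.72 in arsenate WT, against 3.73 to 4.05 in untreated WT, a shift of -2.26 (-2.70 unnormalized). Phenylalanine showed -2.18 for FRS2 against MSF1 and -1.30 for FRS1 against MSF1, proline -1.39 for YHR020W against AIM10, and tryptophan -1.18 for WRS1 against MSW1. Lysine ran the other way. The ratio of KRS1 to MSK1 was 3.67 to 3.84 in arsenate WT, against 2.18 to 2.38 in untreated WT, a shift of 1.46 (0.96 unnormalized), which joins a clear fall of MSK1 to a change of KRS1 whose sign depends on the scaling. Isoleucine also shifted up, by 0.97 for ILS1 against ISM1 (0.49 unnormalized), where both fell and ISM1 fell more. For leucine both fell and CDC60 fell more than NAM2 (-0.74, and -1.06 unnormalized). For tyrosine and aspartate the ratios of the groups overlapped, although unnormalized ratios of TYS1 to MSY1 shifted by -0.46 without overlap.

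**Figure D2:**
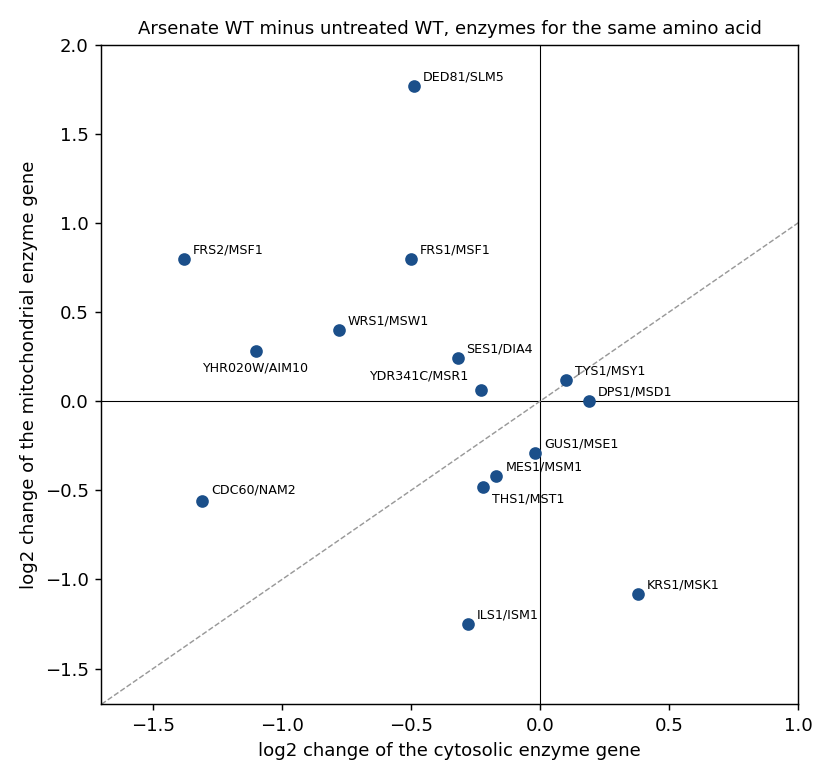
Log2 change in arsenate WT minus untreated WT of the cytosolic gene (x axis) and the mitochondrial gene (y axis) for the same amino acid, 15 pairs, with a dashed line where both change alike. DED81/SLM5 and FRS2/MSF1 lie far above the line and KRS1/MSK1 (0.38 and -1.08) far below it, and the horizontal place of KRS1, DPS1 and TYS1 changes side of 0 with median centring.

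Genes that work beside the synthetases were also read from lists. The shares called were 71.4% of the charging partners, 66.7% of the genes of uncharged tRNA sensing, 77.8% of tRNA transcription, 90.9% of maturation and export, 74.0% of modification and 57.1% of mitochondrial translation factors, beside 81.2% of all genes (41.9% higher and 39.2% lower). Of 7 charging partners 2 rose and 3 fell. GRS2, a paralogue of GRS1 that is little used in standard growth, rose by 1.54 ± 0.11 (adjusted p = 1.74e-08) where GRS1 fell, and the log2 ratio of GRS1 to GRS2 was 1.43 to 1.51 in arsenate WT, against 3.72 to 4.27 in untreated WT. ARC1, which binds the methionine and glutamate enzymes and helps them take up tRNA, fell by 0.30 ± 0.06, where its partners MES1 and GUS1 did not pass. With median centring all 3 fell, ARC1 by 0.73, MES1 by 0.40 and GUS1 by 0.53. The 3 subunits of the amidotransferase that makes mitochondrial glutaminyl-tRNA, in place of a synthetase, did not move together: PET112 rose by 0.22 ± 0.08, GTF1 fell by 0.21 ± 0.05, and HER2 (0.14 ± 0.07) did not pass. DTD1, which removes D-amino acids from tRNA, fell by 0.50 ± 0.08, and FMT1, which formylates the mitochondrial initiator, did not pass (0.41 ± 0.29) but rose by 0.80 with median centring (adjusted p = 0.0216).

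Uncharged tRNA is sensed by the kinase Gcn2 with its activators Gcn1 and Gcn20, and translation of the activator Gcn4 follows. In arsenate WT the mRNAs of GCN1 (-1.38 ± 0.08), GCN2 (-0.86 ± 0.10) and GCN4 (-0.54 ± 0.09, and -1.03 with median centring) fell, YIH1, an inhibitor of Gcn2, rose by 0.24 ± 0.09, and GCN20 and GIR2 did not pass. With median centring GCN20 fell by 0.18 (adjusted p = 0.0303), beside 0.05 ± 0.05 after quantile normalization. These are mRNA values and say nothing of Gcn2 activity. In tRNA synthesis by RNA polymerase III, 3 of 9 genes rose and 4 fell, with MAF1, its repressor, up by 0.80. Of 22 genes of tRNA maturation and export 7 rose and 13 fell (median -0.42), with the exportin LOS1 at -2.44 and the ligase TRL1 at -2.16. Of 50 tRNA modification genes 4 rose and 33 fell (median -0.73), with TRM3 at -2.26. Mitochondrial translation factors had 4 of 7 lower, with the elongation factor TUF1 at -0.80, and 0 higher. Ribosomal proteins for comparison had 122 of 124 lower in the cytosolic set (median -2.11, 99.2% called). The mitochondrial set had 29 of 55 lower and 6 higher (median -0.21, 63.6% called). The counts in this paragraph stand beside 81.2% of all genes called, 41.9% higher and 39.2% lower.

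Under arsenate, most synthetases in yap1 lay near their WT values. In yap1 minus arsenate WT, 5 of 35 passed (14.3%), not above the 19.0% of all genes. Nothing particular to the synthetases is read from that count. MES1, SLM5, MSM1 and YDR341C fell, beside 9.34% of all genes lower, and NAM2 rose, beside 9.61% higher. Arrays of the groups did not overlap for 4 synthetases that were higher and 9 that were lower, beside 25.1% and 15.8% of all genes. Over the 35 genes the changes ran from -0.79 to 0.23 with a median of -0.03, beside 0.05 over all genes.

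The methionine enzymes of both compartments were among those that fell. MES1 had 10.33, 10.68 and 10.53 in yap1, against 11.28, 11.28 and 11.35 in arsenate WT, a fall of 1.73-fold (-0.79 ± 0.10, adjusted p = 4.67e-05). MSM1 had 7.95, 7.94 and 8.10 in yap1, against 8.54, 8.42 and 8.38 in arsenate WT, a fall of 1.37-fold (-0.45 ± 0.07, adjusted p = 0.000407). All 3 yap1 arrays lay below all 3 WT arrays in both genes. SLM5 had 9.60, 9.40 and 9.56 in yap1, against 10.25, 10.20 and 10.17 in arsenate WT, a fall of 1.61-fold (-0.69 ± 0.08, adjusted p = 2.63e-05). The yap1 arrays of SLM5 remained above the untreated WT arrays, which ended at 8.60. The calls of MES1, MSM1 and SLM5 held in all 23 alternatives.

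The arginine and leucine changes were less firm. YDR341C had 11.50, 11.72 and 11.67 in yap1, against 11.95, 11.97 and 12.01 in arsenate WT, a change of -0.35 ± 0.09 (adjusted p = 0.0143). The call was lost without yap1 replicate 1 (-0.28, adjusted p = 0.0646), without arsenate WT replicate 3 (-0.33, adjusted p = 0.0521) and with median centring (-0.28, adjusted p = 0.102). On yap1 replicate 1, 16 of the 21 cytosolic synthetases had their lowest value of the 3 yap1 arrays, with a median deviation of -0.12 from the group mean, and the part of this array's shift in the result was not tested beyond that omission. NAM2 had 8.23, 8.20 and 8.23 in yap1, against 8.02, 7.97 and 7.99 in arsenate WT, a rise of 0.23 ± 0.07 (adjusted p = 0.0331). Its groups did not overlap, but its call was lost without any one of the 6 arrays compared (changes of 0.21 to 0.24, adjusted p from 0.0635 to 0.102), with median centring (0.19, adjusted p = 0.0877) and with a trended robust prior (adjusted p = 0.0784).

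**Figure D3:**
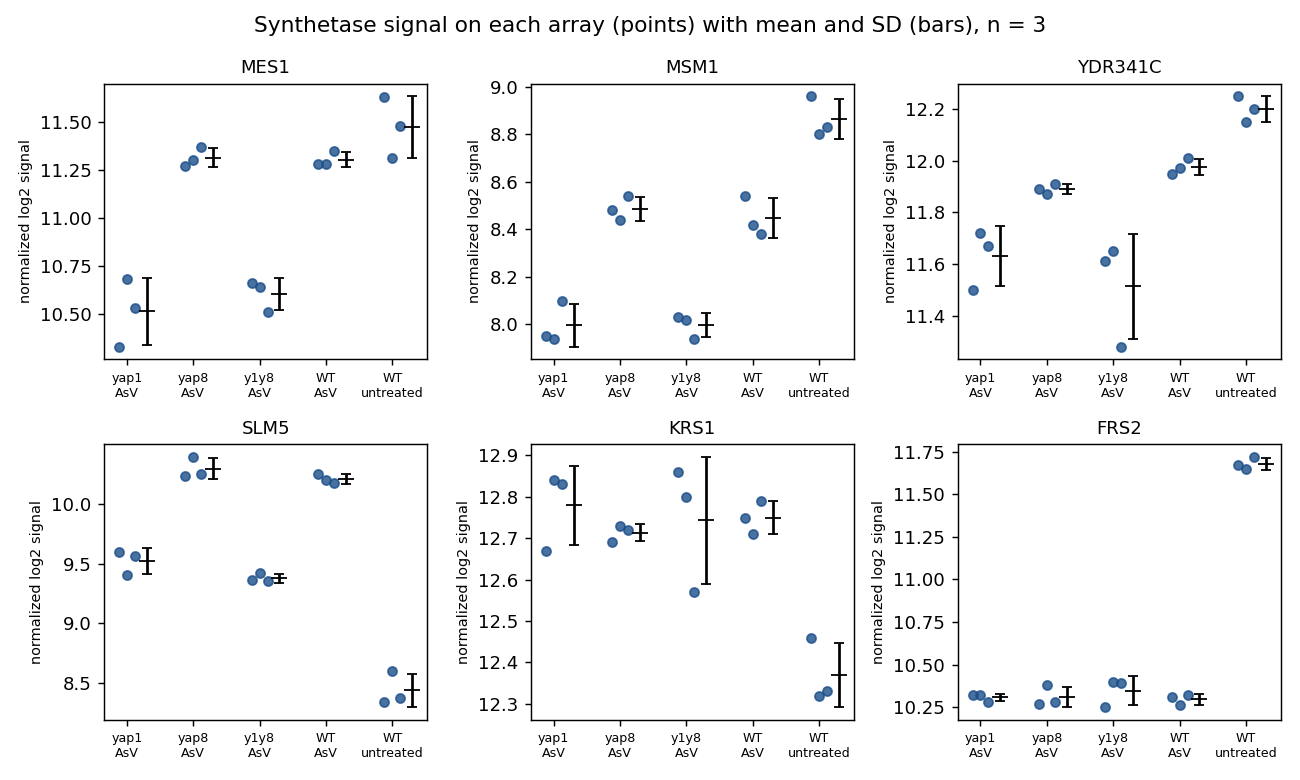
Normalized log2 signal (y axis, a separate range for each gene) of MES1, MSM1, YDR341C, SLM5, KRS1 and FRS2 on each array (points), with mean and SD (bars, n = 3), in yap1, yap8, y1y8 and WT with arsenate and in untreated WT. MES1, MSM1, YDR341C and SLM5 are lower in yap1 and y1y8 than in yap8 and arsenate WT, while FRS2 stays between 10.25 and 10.40 on every arsenate array, against 11.65 to 11.72 in untreated WT. The higher place of KRS1 with arsenate is lost with median centring.

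Loss of Yap8 alone changed no synthetase by the test. In yap8 minus arsenate WT, 0 of 35 passed with limma, 2 had an unadjusted p under 0.05, and 0.125% of all genes were called. Changes ran from -0.20 to 0.08, and the 95% intervals of all 35 together spanned -0.50 to 0.30. MES1 had 11.27, 11.30 and 11.37 in yap8 and SLM5 had 10.23, 10.39 and 10.25, in each case overlapping arsenate WT. Arrays did not overlap for 7 synthetases that were lower and 0 that were higher in yap8, beside 7.77% and 8.38% of all genes.

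The double mutant gave 4 calls of 35 (11.4%) against arsenate WT, all lower. That share is not above the 20.0% of all genes called (10.1% higher and 9.88% lower). Arrays did not overlap for 3 synthetases that were higher and 10 that were lower, beside 25.2% and 16.2% of all genes. SLM5 had 9.36, 9.42 and 9.35 in y1y8, against 10.25, 10.20 and 10.17 in arsenate WT, a fall of 1.78-fold (-0.83 ± 0.08, adjusted p = 3.84e-06). MES1 had 10.66, 10.64 and 10.51 in y1y8, against 11.28, 11.28 and 11.35 in arsenate WT, a fall of 1.62-fold (-0.70 ± 0.10, adjusted p = 0.000133). Both groups of arrays stood clear of each other. MSM1 had 8.03, 8.02 and 7.94 in y1y8, against 8.54, 8.42 and 8.38 in arsenate WT, a fall of 1.36-fold (-0.45 ± 0.07, adjusted p = 0.000397). YDR341C had 11.61, 11.65 and 11.28 in y1y8, against 11.95, 11.97 and 12.01 in arsenate WT, a change of -0.46 ± 0.09 (adjusted p = 0.00214). Replicate 3 of y1y8 was low for YDR341C and was the lowest of its group for 17 of 21 cytosolic synthetases (median deviation -0.16). The 4 calls held in all 23 alternatives. The yap1, yap8 and y1y8 comparisons share the same 3 arsenate WT arrays, so the values of yap1 and y1y8 are given side by side and not as independent results.

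**Figure D4:**
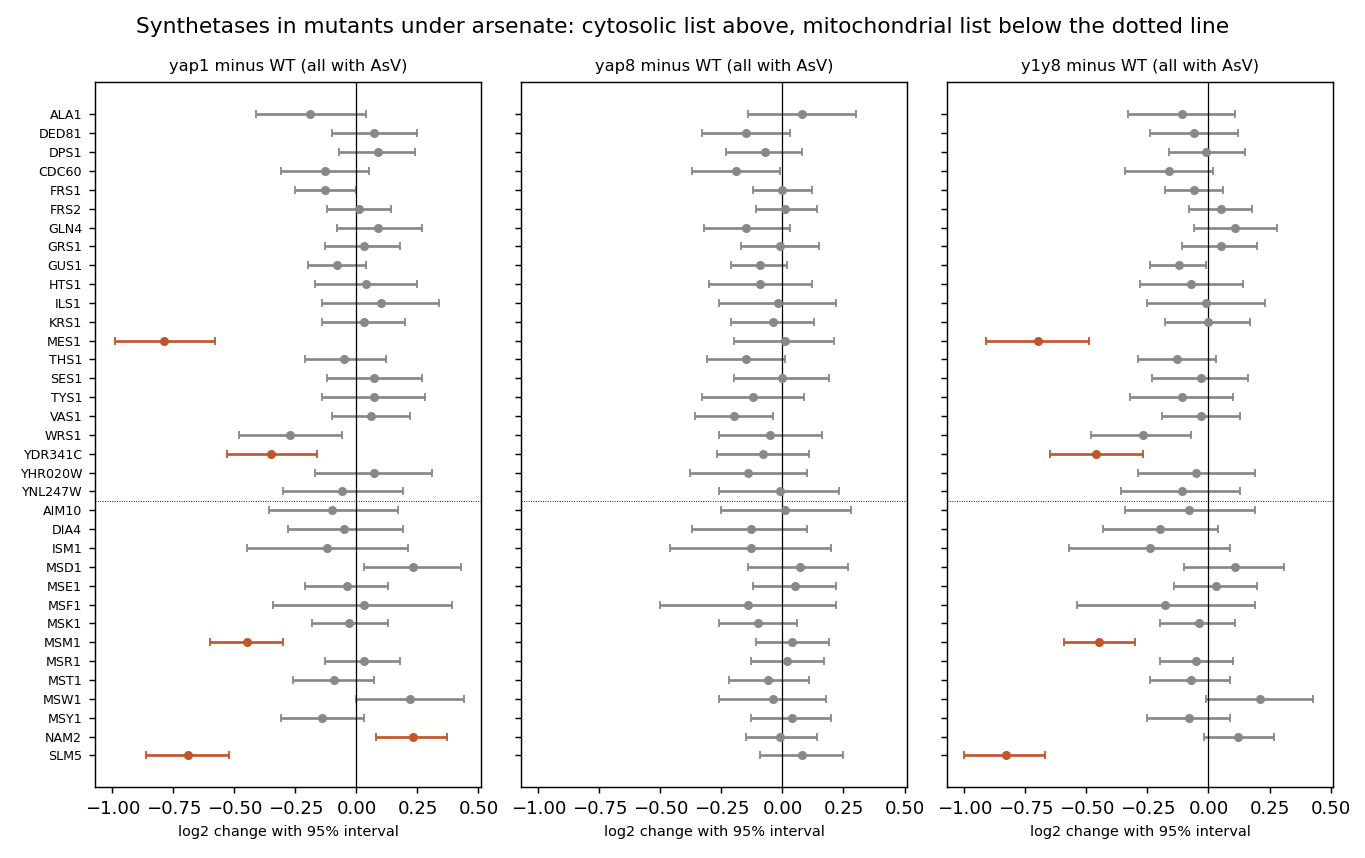
Log2 change with 95% interval of each synthetase in yap1, yap8 and y1y8, each minus WT, all with arsenate (n = 3 arrays per group), with the genes past the threshold coloured. MES1, YDR341C, MSM1 and SLM5 are below 0 in yap1 and y1y8, NAM2 is above 0 in yap1, and no gene is coloured for yap8.

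Comparisons among the mutants used other arrays as the base. In y1y8 minus yap1, 0 of 35 passed with limma and 0 had an unadjusted p under 0.05, beside 0.0895% of all genes called, and the 95% intervals spanned -0.57 to 0.30. In y1y8 minus yap8, 5 of 35 passed (14.3%), 1 higher and 4 lower, beside 19.2% of all genes (9.22% higher and 9.97% lower). Arrays did not overlap for 2 synthetases that were higher and 5 that were lower, beside 23.2% and 15.5% of all genes. SLM5 had 9.36, 9.42 and 9.35 in y1y8, against 10.23, 10.39 and 10.25 in yap8 (-0.92 ± 0.08, adjusted p = 1.34e-06), and MES1 differed by -0.71 ± 0.10 (adjusted p = 0.000113). MSM1 had 8.03, 8.02 and 7.94 in y1y8, against 8.48, 8.44 and 8.54 in yap8 (-0.49 ± 0.07, adjusted p = 0.000182). YDR341C differed by -0.38 ± 0.09 (adjusted p = 0.00818), with 11.61, 11.65 and 11.28 in y1y8, against 11.89, 11.87 and 11.91 in yap8, and missed the threshold in a fit of those groups alone (adjusted p = 0.051). In each of these genes the y1y8 arrays were the lower. GLN4 had 10.18, 10.27 and 10.25 in y1y8, against 9.94, 10.11 and 9.87 in yap8, a rise of 0.26 ± 0.08 (adjusted p = 0.0381). The GLN4 call was lost without y1y8 replicate 1, 2 or 3, yap8 replicate 1 or 3 or arsenate WT replicate 1 (changes of 0.21 to 0.29, adjusted p from 0.0521 to 0.148), with median centring (adjusted p = 0.0674) and in a fit of the groups compared alone (adjusted p = 0.0767). A test of whether the losses of both factors add up on the log2 scale in y1y8 found a departure for 0 of 35 synthetases with limma, with 0 at an unadjusted p under 0.05, beside 0.0537% of all genes, and its 95% intervals spanned -0.57 to 0.47.

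Against untreated WT, the double mutant with arsenate joins strain and treatment. There 28 of 35 passed (80.0%), 5 higher and 23 lower, near the 82.0% of all genes (42.4% higher and 39.5% lower). Arrays did not overlap for 3 synthetases that were higher and 23 that were lower, beside 41.8% and 39.4% of all genes. ISM1 had 6.80, 6.51 and 6.95 in y1y8, against 8.39, 8.17 and 8.19 in untreated WT (-1.49 ± 0.15, adjusted p = 7.21e-07), and CDC60 had 10.60, 10.63 and 10.38 in y1y8, against 12.04, 11.94 and 12.02 in untreated WT (-1.47 ± 0.08, adjusted p = 2.32e-09). FRS2 (10.25, 10.40 and 10.39 in y1y8), GLN4 (10.18, 10.27 and 10.25), YNL247W (10.17, 10.18 and 9.94), YHR020W (11.05, 10.90 and 10.72), MSK1 (9.01, 8.97 and 8.87) and WRS1 (10.40, 10.37 and 10.08) had falls of 1.05 to 1.33. For all 8 the y1y8 arrays lay wholly below the untreated ones. MES1, which did not pass in arsenate WT, fell by 0.87 ± 0.10 in y1y8 minus untreated WT (adjusted p = 1.39e-06). SLM5 rose by 0.93 ± 0.08 there (adjusted p = 9.69e-08), beside 1.77 ± 0.08 in arsenate WT minus untreated WT. KRS1 and DPS1 rose by 0.37 and 0.18 after quantile normalization, and with median centring they changed by -0.18 (adjusted p = 0.157) and -0.30 (adjusted p = 0.0174). The DPS1 call was also lost without untreated replicate 1, 2 or 3 or y1y8 replicate 1 or 2 (changes of 0.13 to 0.19, adjusted p from 0.051 to 0.144).

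In the other lists, calls with loss of Yap1 are set beside 19.0% of all genes in yap1, 0.125% in yap8 and 20.0% in y1y8, each minus arsenate WT. With 6 or 7 genes in a list, 0 or 1 call is near those shares and nothing is read from it. GTF1 rose in yap1 (0.26 ± 0.05, adjusted p = 0.00428) and in y1y8 (0.19 ± 0.05, adjusted p = 0.0279) relative to arsenate WT and was the sole call among the 7 charging partners in each, though its y1y8 call was lost with median centring (0.17, adjusted p = 0.084). None of the 6 genes of uncharged tRNA sensing passed in yap1, yap8 or y1y8 minus arsenate WT, with 1, 0 and 1 at an unadjusted p under 0.05. Larger falls stood in the longer lists, where 2 of 22 maturation and export genes and 2 of 50 modification genes fell in yap1 (9.09% and 4.0% called). In y1y8 3 of the 22 maturation and export genes rose and 2 fell (22.7% called), with TRL1 up by 0.74. Of the 50 modification genes 3 fell there and 0 rose (6.0% called). RPM2, a protein subunit of mitochondrial RNase P, changed by -1.22 ± 0.14 in yap1 and -1.27 ± 0.14 in y1y8, and the exportin LOS1 by -0.78 ± 0.18 and -0.76 ± 0.18. RIT1, which modifies the initiator tRNA, changed by -1.07 ± 0.07 in yap1 and -1.03 ± 0.07 in y1y8, and the methyltransferase TRM13 by -0.67 ± 0.13 and -0.51 ± 0.13. All 4 passed in both comparisons, which share the arsenate WT arrays. RPM2, RIT1 and TRM13 are named for these changes and not for their change in WT. Among the 7 mitochondrial translation factors the initiation factor IFM1 rose in yap1 (0.60 ± 0.13, adjusted p = 0.00649) and was the sole call (14.3%). In y1y8 the release factor MRF1 (-0.34 ± 0.11, adjusted p = 0.0471) and the recycling factor RRF1 (-0.34 ± 0.10, adjusted p = 0.0305) fell. That is 28.6% called, beside 20.0% of all genes (9.88% lower), and nothing is read from so few genes. The MRF1 call was lost with median centring (-0.32, adjusted p = 0.0571).

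The authors' deposited table for arsenate against untreated WT lists 19 of the 35 synthetases among 3702 probe sets. An array holds 10928 probe sets, 5638 of them for yeast genes, so nothing is read from the counts of listed synthetases. The authors' intensities were model-based, unlike those used here, and their table gives bounds on each fold change. The lower bound smallest in size among the 19 was -1.22 (MSK1). A listing there and a call here thus rest on unlike measures and rules. Of the genes called here, KRS1, DPS1, MSW1 and AIM10 (higher) and SES1, ILS1, YDR341C and MSE1 (lower) are not among the 19, and no disagreement is read from that. In the authors' deposited table SLM5 is listed at 3.07-fold higher and MSF1 at 2.01-fold higher, and CDC60, FRS2 and ISM1 have signed fold changes of -2.39, -2.28 and -2.18. MSK1 is listed there at -1.37, where the fit described here, on other intensities, gave a fall of 2.12-fold. For yap1 against arsenate WT the authors' deposited table lists 3 synthetases among 553 probe sets, SLM5 at -1.75, MES1 at -1.65 and MSM1 at -1.41. The authors' deposited table for yap8 holds none of the 35 among its 25 probe sets.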

How the data were processed

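RNA, extracted with hot phenol per the labels' protocols, was measured on 15 arrays, 3 in each of 5 groups taken from the labels. The deposited values were linear intensities for 10928 probe sets with detection calls, not scaled between arrays per the file headers and values. The submitters' processing notes name Partek. How probe sets were summarised has no description in the sources used. A deposited workbook holds the authors' signed fold changes, a score negative where the first-named group is lower. Among its columns that were not used are 18 of detection calls. Probe sets were named from the platform annotation (34 synthetases) and the workbook (YNL247W), 1 probe set each.

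Quantile normalization covered all probe sets, and values were floored at 1 and log2 transformed. limma 3.58.1 in R 4.3.3 fitted group means over all 15 arrays (lmFit, contrasts.fit, eBayes; two-sided; Benjamini-Hochberg over 5588 genes; threshold 0.05) in 8 comparisons, after a test on simulated data. P-values set a difference of group means against the spread between arrays within groups, estimated over all 5 groups and moderated across genes. Precision is limited by 3 arrays a group.

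Members and lists were chosen with earlier results of these data known. Values on every array were given for the 5 largest cytosolic falls, the 3 members at the upper end, the 4 largest mitochondrial rises and the 4 largest falls in WT, and elsewhere for called synthetases, up to 8. All members of the partner and sensing lists and up to 3 of each longer list, by change in WT, were eligible for naming. RPM2, RIT1, TRM13, IFM1, MRF1 and RRF1 fall outside that rule and were named from the mutant comparisons. Alternatives were median centring, quantile normalization of yeast probe sets, an added 16 before log2, a present-call filter, the mean of probe sets, a trended robust prior, a replicate block, the compared groups alone, and each array left out.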

Additional observations from a re-analysis of the deposited data

How the results depend on the processing

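There were 23 alternatives. With median centring in place of quantile normalization, changes with arsenate in WT turned to -0.27 for DPS1, -0.12 for KRS1 and -0.35 for TYS1, and in y1y8 minus untreated WT to -0.30 for DPS1 and -0.18 for KRS1. The cause was not tested. With median centring 3 synthetases passed in yap1 minus arsenate WT, and with only the groups compared 3 passed in y1y8 minus yap8. The shares of all genes called in these settings are not given here, so nothing is read from these counts. Leaving out 1 array at a time gave 22 to 28 synthetases in arsenate WT minus untreated WT, 3 to 6 in yap1, 0 to 0 in yap8 and 4 to 5 in y1y8, each minus arsenate WT, 0 to 0 in y1y8 minus yap1, 4 to 6 in y1y8 minus yap8, 25 to 29 in y1y8 minus untreated WT, and 0 to 0 for the departure from additivity. In the same order, counts over all genes were 4355 to 4568, 754 to 1319, 5 to 10, 803 to 1382, 4 to 9, 778 to 1288, 4415 to 4585 and 3 to 4. The labels number the replicates 1 to 3 in each group. Over 30 pairs of arrays with the same number, deviations correlated at -0.329 to 0.408, and in 0 of 10 pairs of groups was every correlation over 0.1. This check cannot settle whether arrays with the same number share a culture or a batch. With the replicate number as a block, 27 synthetases passed in WT, 5 in yap1 and 4 in y1y8, counts that likewise stand without the share of all genes called. Groups of 3 arrays limit the precision of small changes, and signals on a common array scale cannot show a change of all RNA together.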
